A study of Mus musculus with 6 samples.

Results

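The genes described here encode the nuclear subunits of the mitochondrial respiratory chain (complexes I to IV) and of ATP synthase (complex V). They were chosen by gene symbol alone, as those with a single platform symbol starting with Nduf (without Ndufaf), Sdh, Uqcr, Cox4 to Cox8 or Atp5, and 1 probe set, the brightest on average across the 6 arrays, stands for each gene. That gave 86 of the 18193 genes with a single symbol: 36 for complex I, 8 for complex II, 8 for complex III, 17 for complex IV and 17 for complex V. The prefixes also took in the 4 assembly factors Sdhaf1 to Sdhaf4, which are no subunits, and Ndufa4, which is counted with complex I by its symbol although its protein is now placed in complex IV. A further limit is that a gene appears only where the platform annotation gives it a single symbol, so that Ndufb4 stands here on 1 probe set listed near the bottom of the scale. Cox7c and Ndufb1 also stand on dim probe sets, with means of 5.34 and 4.90, and how well these read the genes was not tested.

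The tissue was amygdala from 6 male mice of the strain 129S1/SvImJ (S1), aged 8 to 10 weeks, killed 2 h after fear extinction training. The 3 mice of the group labelled ZnR were on a zinc diet (numbers 3, 7 and 10 in the titles) and the 3 of the group labelled Ctrl on a control diet (numbers 1, 9 and 11). All shared strain, sex, age range and training, the labels name no transgene, and the sources used here do not state how much zinc either diet held. Each mouse gave 1 Affymetrix Mouse430_2 array, which reads the 3′ end of transcripts in bulk tissue, so fewer cells of a type and less RNA per cell cannot be told apart.

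Complex I takes electrons from NADH and complex II takes them from succinate, as part of the citric acid cycle. Both pass them by ubiquinone to complex III, and cytochrome c carries them to complex IV, which reduces oxygen. Complexes I, III and IV pump protons, and ATP synthase uses the gradient to make ATP, which neurons need in large amounts for ion pumping and synaptic transmission. A few core subunits are encoded in mitochondrial DNA, and the nuclear genes described here supply the remainder.

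A mean log2 level of at least 4 over the 6 arrays was required for a test, and 79 of the 86 genes met it. The 7 that did not were Ndufa4l2, Ndufb4, Cox4i2, Cox6b2, Cox7a1, Cox7b2 and Cox8b, with means from 2.68 (Cox4i2) to 3.72 (Cox7a1). Cox4i2, Cox6b2, Cox7a1, Cox7b2 and Cox8b are isoforms known from lung, testis, heart or muscle, and values this low carry no detection call here, so they are given as levels only. Cox8c lay just inside the filter at 4.03. The tested genes had high values: 66 of 79 (83.5%) had a mean of at least 11, as did 14.6% of the 11221 genes tested when each was taken by its brightest probe set in the same way. That choice raises the level of members and other genes alike, and levels are given as a description. No measure of saturation was at hand, so how far the top of the scale narrows differences between mice was not tested.

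The respiratory chain genes differed little between mice. From the lowest to the highest of the 6 mice, the tested genes spanned a median of 0.15 log2 units, against 0.34 over all genes by their brightest probe set, and 59 of the 79 (74.7%) spanned under 0.2. A span under 0.2 was also found for 54.6% of the 1639 genes with a mean of at least 11 and for 19.8% of all genes on that basis. Ndufa10, an accessory subunit of complex I, had the narrowest span at 0.027, followed by Sdhb (0.043) and Atp5b (0.051). Cox7c had the widest at 0.74, followed by Sdhaf3 (0.46) and Atp5mpl (0.42). The SD within a diet had a median of 0.054 for the tested genes, 0.066 for genes of mean 11 or more, and 0.12 for all genes, each by its brightest probe set.

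Between the diets, 0 of the 79 tested genes passed an adjusted p of 0.05 in limma, as 0 of all 22877 probe sets (0%) did. At an unadjusted p under 0.05 there were also 0 of 79, where 6.38% of all probe sets were found (3.63% higher and 2.75% lower in zinc diet mice). With 1 probe set per gene the share over all genes was 7.04%. These shares are no like measure, because limma's standard error draws on a prior SD of 0.124 common to all probe sets. The SD within a diet exceeded it for 7 of the 79 genes and for 5400 of 11221 genes by their brightest probe set. With a prior that follows the level (limma's trend and robust settings), 2 of 79 had an unadjusted p under 0.05. The share of all probe sets under those settings was not counted, so this count has no background beside it. The difference, zinc diet minus control diet, had a median of 0.024 log2 units over the tested genes, and 53 of 79 (67.1%) lay above 0. Over all probe sets the median was 0.0091. Over all genes with 1 probe set each it was 0.012, and 54.5% of these genes lay above 0. The 3 zinc diet mice lay above the 3 control mice without overlap for 9 of the 79 genes, where this held for 6.66% of all probe sets. They lay below for 0 of the 79, where this held for 5.33%. In all, 11.4% of the tested genes had diets that did not overlap, near the 12% of all probe sets and the 13.7% of all genes with 1 probe set each. The share above without overlap was 8.12% on that gene basis. With quantile normalization 57.0% of the tested genes lay above 0. With median centring or array weights it was 73.4%. It was 58.4% of 77 genes with probe sets averaged within genes. Where probe sets that can match related transcripts were replaced, it was 56.8% of 74. The shares of all genes above 0 under these alternatives were not counted. Of 65 further tested probe sets of these genes, 41 had the sign of the one that represents the gene. Among the 65, those of Atp5k lay below without overlap, and a probe set each of Cox5a, Cox7a2, Cox7c and Ndufv2 lay above without overlap.

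**Figure D1:**
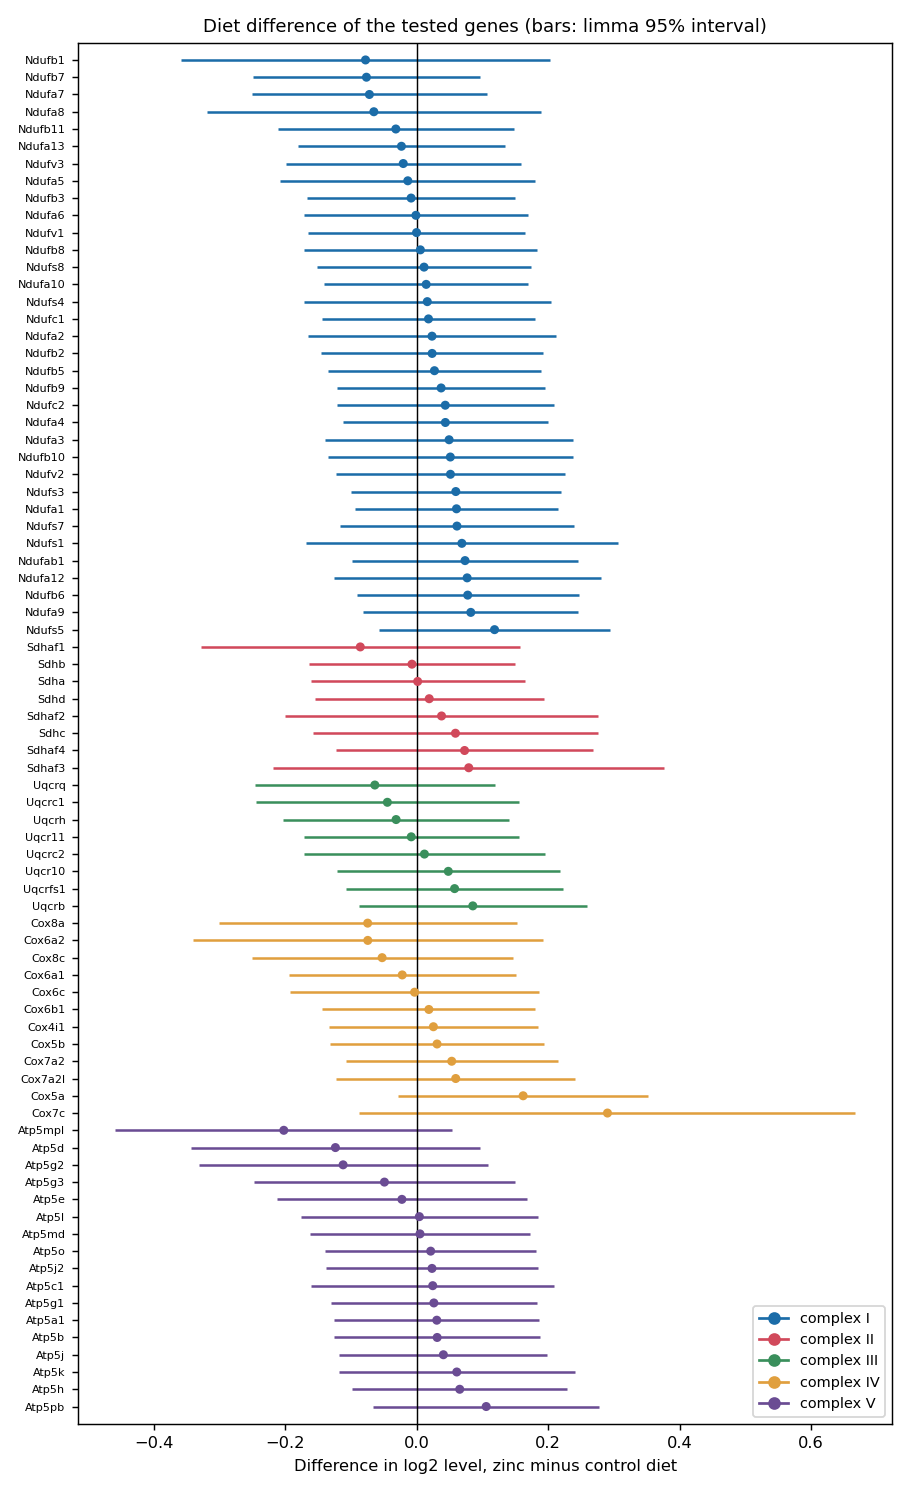
Difference in log2 level between zinc diet and control diet (x axis) for each of the 79 tested genes (y axis), coloured by complex, with the 95% interval from limma as bars (n = 3 mice per diet). Every interval includes 0, and the point estimates lie between -0.20 (Atp5mpl) and 0.29 (Cox7c).

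The intervals give the sizes that these 6 arrays leave possible. For 67 of the 79 genes the 95% interval of the difference lay wholly within 0.3 log2 units (1.23-fold) of 0. The same held for 40.4% of all genes by their brightest probe set and for 75.4% of those with a mean of 11 or more. Point estimates were under 0.1 in size for 72 of the 79 (91.1%). The same held for 55.8% of all probe sets and for 76.9% of those with a mean of 11 or more. The farthest limits were those of Cox7c, up to 1.59-fold higher, and of Atp5mpl, down to 0.728-fold. A missed threshold does not show equal levels, and these limits are the bounds.

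In complex I the medians and means were close between the diets. The mean over its 34 tested genes was 11.82, 11.82 and 11.81 in control mice 1, 9 and 11 and 11.84, 11.84 and 11.82 in zinc diet mice 3, 7 and 10. The ranges overlapped slightly, between control mouse 9 and zinc diet mouse 10. The median difference was 0.024, with 24 of 34 genes above 0. With quantile normalization the median was 0.0072.

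Ndufs5, an accessory subunit, had the smallest p of complex I. Its log2 levels were 10.96, 10.88 and 10.93 in control mice and 10.97, 11.06 and 11.10 in zinc diet mice. Each zinc diet mouse lay above each control mouse, by a margin that for mouse 3 was far smaller than the spread within either diet. The difference was 0.12 ± 0.074 (SE), and limma gave an adjusted p of 0.85. Ndufa9, another accessory subunit, stood at 11.85, 11.93 and 11.92 against 12.01, 11.97 and 11.97, again with no overlap (difference 0.083 ± 0.069 SE). Ndufb6, of the membrane arm, stood at 12.13, 12.21 and 12.24 against 12.31, 12.26 and 12.25, so that control mouse 11 and zinc diet mouse 10 nearly met (0.078 ± 0.071 SE). The diets were also apart for Ndufa1, Ndufa4 and the core subunit gene Ndufs3, which with those 3 made 6 of the 34 genes (17.6%). All 6 had zinc diet mice above, as had 6.66% of all probe sets and 8.12% of all genes with 1 probe set each, and the diets did not overlap in either direction for 12% and 13.7% of these. Ndufa4 was at 13.35, 13.32 and 13.36 in control mice and at 13.39 in each zinc diet mouse.

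The diets overlapped for Ndufv1 and Ndufs1, core subunit genes of the arm where NADH is oxidised. Ndufv1, which carries the NADH and flavin site, was at 12.01 ± 0.054 in control mice and 12.01 ± 0.0175 in zinc diet mice (SD, n = 3 each). The 95% interval of its difference ran from -0.17 to 0.17. Ndufs1, the large iron-sulfur subunit, was at 10.85, 11.18 and 10.96 against 11.11, 11.04 and 11.04. The zinc diet mice lay inside the control range, which was the wider (difference 0.069 ± 0.10 SE). Ndufb1, with a mean of 4.90, was the member of complex I with the lowest tested level.

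Succinate dehydrogenase, complex II, also belongs to the citric acid cycle, and all its subunits are nuclear. Sdha, the flavoprotein that oxidises succinate, was at 11.99, 11.98 and 12.07 in control mice and at 12.01 ± 0.0103 in zinc diet mice (SD, n = 3). The zinc diet mice lay within the control range, and the difference was 0.0017 ± 0.068 (SE). Sdhb, the iron-sulfur subunit, stood between 11.91 and 11.95 in all 6 mice (difference -0.0070 ± 0.066 SE). Sdhc, a membrane anchor, was at 9.95 ± 0.14 against 10.01 ± 0.039 (SD, n = 3 each) and spread more among the control mice.

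Over the 6 mice the 4 assembly factor genes spanned 0.22 to 0.46 log2 units and the 4 subunit genes 0.043 to 0.27. Sdhaf1, known for its part in inserting iron-sulfur clusters into SDHB, was at 8.90, 8.68 and 8.97 in control mice and 8.73, 8.69 and 8.87 in zinc diet mice (difference -0.086 ± 0.10 SE). Sdhaf4 was at 10.20, 10.42 and 10.36 against 10.40, 10.40 and 10.39, and control mouse 1 was the lowest of the 6 (0.073 ± 0.082 SE). The median difference of complex II was 0.029 over 8 genes, and 0.010 over the 4 subunits alone.

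Complex III had the median nearest 0, at 0.0020, with 4 of 8 genes above 0. Uqcrb, a small subunit near the ubiquinone site, was at 13.41, 13.41 and 13.53 in control mice and 13.53, 13.56 and 13.51 in zinc diet mice. Control mouse 11 lay among the zinc diet mice, and the difference was 0.086 ± 0.073 (SE, limma adjusted p = 0.89). Uqcrfs1, the Rieske iron-sulfur protein, was at 11.74, 11.84 and 11.75 against 11.85, 11.82 and 11.83 (0.058 ± 0.070 SE). Here control mouse 9 was the one inside the zinc diet range. Uqcrq stood at 11.51 ± 0.061 in control mice and 11.44 ± 0.069 in zinc diet mice (SD, n = 3 each; -0.063 ± 0.076 SE). Uqcrc1, a core protein of the complex, was at 11.85, 11.91 and 12.06 against 11.93, 11.92 and 11.84, and control mouse 11 was the highest. No gene of this complex had diets that did not overlap, and all 8 intervals lay within 0.3 of 0.

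In complex IV, cytochrome c oxidase, Cox5a and Cox7c had the largest estimates among the 79 genes that lay above 0. Cox5a, a matrix-side subunit, was at 13.26, 13.13 and 13.25 in control mice and at 13.29, 13.40 and 13.43 in zinc diet mice. The diets did not overlap, and the difference was 0.16 ± 0.080 (SE), or 1.12-fold, with the smallest p of all 79 genes (limma adjusted p = 0.81). Of its other 2 tested probe sets, 1 gave 0.22 ± 0.090 (SE) without overlap and 1 gave 0.019 ± 0.087 with overlap, so the probe sets of Cox5a disagree. With a prior variance that follows the level (limma's trend and robust settings), its adjusted p was 0.63.

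Cox7c, a small membrane subunit, was at 5.49, 5.20 and 4.90 in control mice and at 5.64, 5.37 and 5.45 in zinc diet mice. Control mouse 1 lay among the zinc diet mice, and control mouse 11 was far below the rest. The difference was 0.29 ± 0.16 (SE, limma adjusted p = 0.82), and it was 0.44 without control mouse 1. Its second tested probe set, with a mean of 4.20, gave 0.16 ± 0.085 (SE), with no overlap. Both probe sets are dim, with means of 5.34 and 4.20, while Cox4i1 of the same complex averaged 13.70. Whether they read the level of the gene was not tested, nor how far dimness affects the size of the difference.

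The other genes of complex IV lay close together between the diets. Cox4i1, the main subunit IV isoform, was at 13.69 ± 0.035 in control mice and 13.72 ± 0.012 in zinc diet mice (SD, n = 3 each; difference 0.026 ± 0.067 SE). Cox7a2 was at 13.53, 13.49 and 13.56 against 13.56, 13.58 and 13.61, with control mouse 11 above zinc diet mouse 3 (0.053 ± 0.068 SE). Cox6a1 lay between 14.19 and 14.30 in all 6 mice, the highest mean level of the 86 genes, and Cox8a between 12.80 and 13.12. Their counterparts known from heart and muscle were near or below the filter: Cox6a2 between 4.51 and 4.91 and Cox8b between 3.09 and 3.57. Over the 12 tested genes the median difference was 0.022, with 7 above 0. Where probe sets of the designs ending in _s_at, _x_at or _a_at, which can match related transcripts, were replaced by another of the same gene, the median was -0.0030. Cox5b dropped out there, because its replacement had a mean of 3.22.

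ATP synthase, complex V, had the gene with the largest estimate below 0. Atp5mpl, which encodes a small proteolipid of the membrane sector, was at 11.23, 11.58 and 11.49 in control mice and at 11.31, 11.23 and 11.16 in zinc diet mice. Control mouse 1 lay among the zinc diet mice, and control mice 9 and 11 lay above all others. The difference was -0.20 ± 0.11 (SE, limma adjusted p = 0.82), and -0.30 without control mouse 1. Atp5d, the delta subunit of the central stalk, showed the same arrangement, with 12.25, 12.42 and 12.48 against 12.35, 12.26 and 12.16 (-0.12 ± 0.092 SE). Atp5pb, the b subunit of the peripheral stalk, differed the other way, with 13.32, 13.20 and 13.24 against 13.31, 13.37 and 13.39. Control mouse 1 lay just above zinc diet mouse 3, the difference was 0.11 ± 0.072 (SE), and the second tested probe set gave -0.0051 ± 0.080.

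The genes of the catalytic head differed by less than limma's standard errors. These draw on a prior SD of 0.124, above the SD of Atp5b and Atp5a1 within each diet. Atp5b, the catalytic beta subunit, was at 13.47, 13.48 and 13.52 in control mice and at 13.52, 13.53 and 13.52 in zinc diet mice (difference 0.031 ± 0.066 SE). Atp5a1, the alpha subunit, was at 13.09 ± 0.013 against 13.12 ± 0.0185 (SD, n = 3 each), without overlap of the diets, as was Atp5h of the peripheral stalk. The next brightest probe sets of Atp5a1 and Atp5h gave 0.0012 ± 0.069 and -0.0069 ± 0.069 (SE), with overlap. Atp5k gave 0.061 ± 0.075 (SE), while its other probe sets gave -0.12 ± 0.077 and -0.15 ± 0.077, with zinc diet mice below without overlap. The 3 genes for the membrane ring subunit c all had overlapping diets. Atp5g1 lay between 11.59 and 11.66, Atp5g2 between 10.99 and 11.32 with its highest value in control mouse 11, and Atp5g3 between 13.30 and 13.47. The median difference of complex V was 0.024 over 17 genes, with 12 above 0, while the mean was -0.0039. With the same replacement of probe sets the median was -0.0069. Some replacements were dim, with means of 5.57 for Atp5c1 and 4.56 for Atp5g1.

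**Figure D2:**
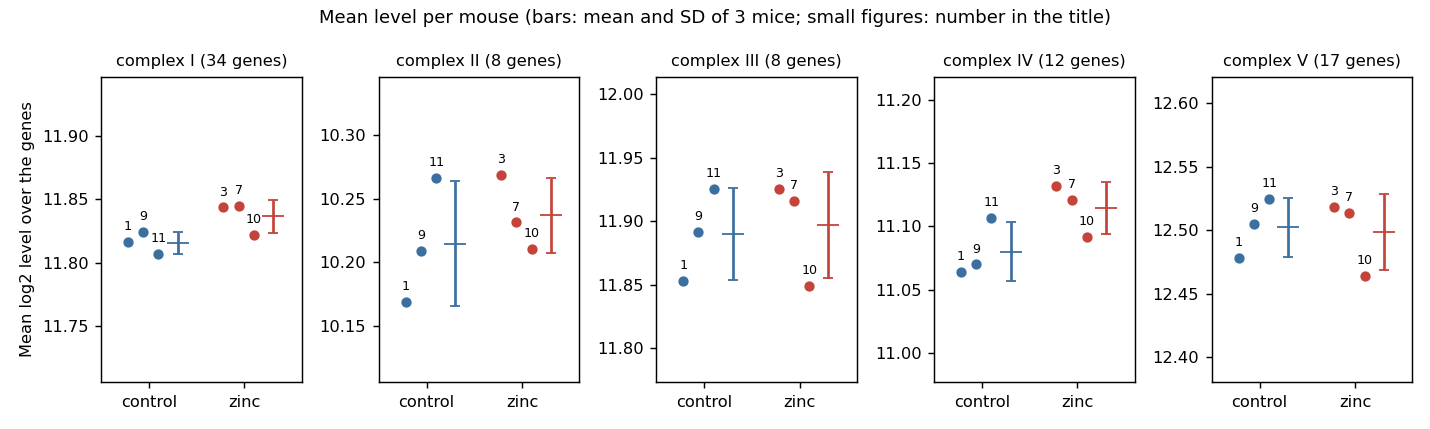
Mean log2 level (y axis) over the tested genes of each complex in each mouse, by diet, with the mean and SD of 3 mice as bars and the number in the title above each point. Each panel spans the same height. The ranges of the diets overlap in all 5 complexes, and in complexes II to V control mouse 1 is the lowest control and zinc diet mouse 10 the lowest zinc diet mouse.

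Per mouse, the complexes moved by hundredths of a log2 unit. Complex IV averaged 11.06, 11.07 and 11.11 in control mice and 11.13, 11.12 and 11.09 in zinc diet mice. Complex III averaged 11.85, 11.89 and 11.93 against 11.93, 11.92 and 11.85. Control mouse 1 had the lowest level for 22 of the 79 genes, zinc diet mouse 10 for 23 and control mouse 9 for 19, against 2 and 1 for zinc diet mice 3 and 7. Over all probe sets tested, mice 3 and 7 were lowest for 12.3% and 11.2%, and mice 1, 10 and 9 for 22.3%, 15.5% and 22.7%.

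What the members share beyond their names was looked for in their promoters, because factors of the NRF1, ETS (GABPA) and YY1 type are known regulators of respiratory chain genes. RefSeq promoter windows (GRCm38.p6, 250 bases before to 50 after the start) matched 71 of the 86 genes. The letters searched, on both strands, were GCGCA and GCGC parted by any 1 base for NRF1, CCGGAAG for ETS and AAGATGG for YY1. The NRF1 letters were held by 17 of the 71 genes (23.9%), against 5.2% of all 27025 genes with a window and 14.1% of 1340 genes with a probe set of mean 11 or more. ETS letters were held by 20 (28.2%, against 9.9% and 17.9%), and YY1 letters by 10 (14.1%, against 7.3% and 10.3%). At least 1 of the 3 was held by 41 of 71 (57.7%, against 20.0% and 36.4%). By complex this was 15 of 32, 7 of 7, 3 of 5, 4 of 12 and 12 of 15 genes for I to V. A match is a run of letters in the window only.

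The 120 bases just before the start are shown for the gene with the smallest p between diets (Cox5a), the gene with the smallest p along the title number (Cox7c), the gene with the smallest p in complex I (Ndufs5), and Sdha, which differed least within complex II. Capitals mark the NRF1 letters, and no other searched motif lies wholly within these stretches. They come from chr9:57521112-57521231 (plus strand), chr13:86046796-86046915 (minus), chr4:123718187-123718306 (minus) and chr13:74350241-74350360 (minus).
Cox5a: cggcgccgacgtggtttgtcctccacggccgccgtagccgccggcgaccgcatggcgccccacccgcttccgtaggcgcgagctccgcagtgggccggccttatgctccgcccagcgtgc
Cox7c: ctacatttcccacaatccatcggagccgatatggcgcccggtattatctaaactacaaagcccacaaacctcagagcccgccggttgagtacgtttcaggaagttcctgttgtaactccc
Ndufs5: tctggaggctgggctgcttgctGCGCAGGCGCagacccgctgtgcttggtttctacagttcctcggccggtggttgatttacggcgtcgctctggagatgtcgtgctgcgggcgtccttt
Sdha: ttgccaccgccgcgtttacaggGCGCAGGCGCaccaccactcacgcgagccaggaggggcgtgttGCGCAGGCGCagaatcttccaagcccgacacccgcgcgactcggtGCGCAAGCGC
Sdha held the NRF1 letters 3 times and Ndufs5 once in these stretches, while Cox5a and Cox7c held none there.

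**Figure D3:**
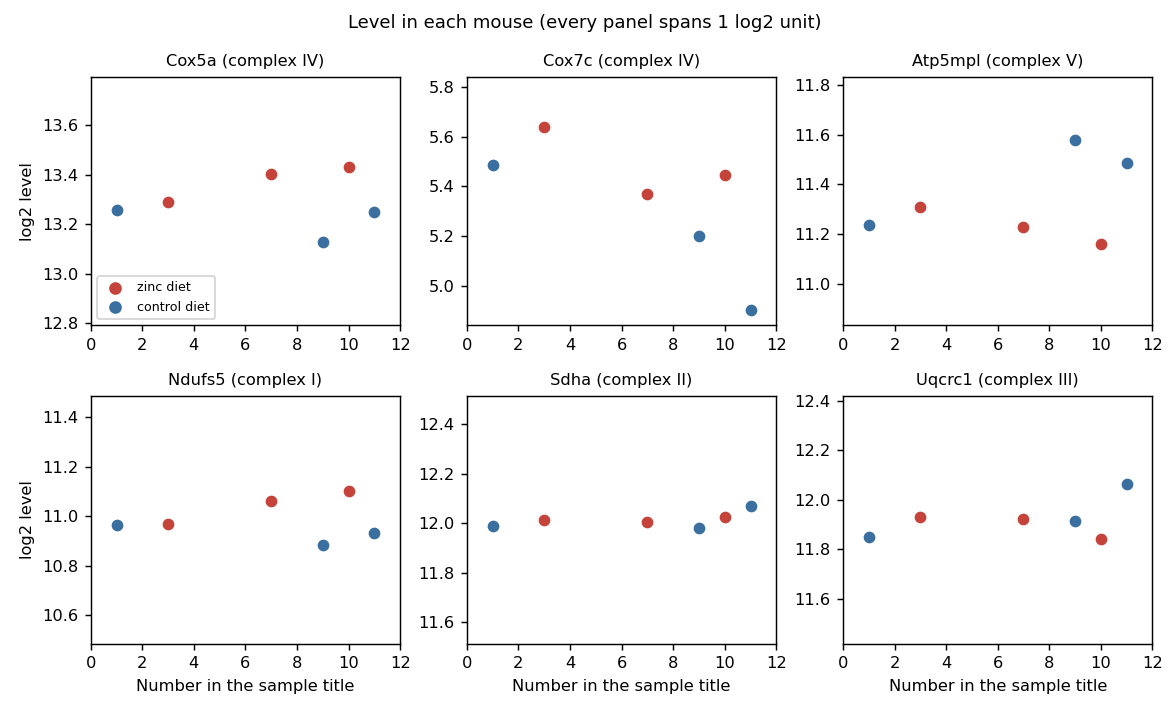
Log2 level (y axis, each panel spanning 1 log2 unit) in each mouse against the number in its sample title (x axis), for 6 genes, with zinc diet mice in red and control mice in blue. Cox7c is highest in mouse 3 and lowest in mouse 11, Atp5mpl is highest in control mice 9 and 11, and Sdha lies between 11.98 and 12.07 throughout.

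The number in the sample titles runs from 1 to 11 through both diets, and its meaning is not given in the labels. A slope per step of that number was fitted with diet in the model. A prior SD common to all probe sets enters these p-values as well. By limma, 0 of the 79 tested genes had an adjusted p under 0.05, where 0.00437% of all probe sets did. At an unadjusted p under 0.05 there was 1 of 79 (1.27%), against 10.2% of all probe sets (3.86% with a positive and 6.39% with a negative slope) and 6.47% of genes with 1 probe set each. The probe set past the adjusted threshold was 1 of 22877, a probe set of Gnas, which encodes the stimulatory G protein alpha subunit, with a slope of -0.25 (limma adjusted p = 0.045; chosen after its values were seen).

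Cox7c was the 1 respiratory chain gene at that unadjusted threshold. Its slope was -0.046 ± 0.014 (SE) log2 units per step, or -0.46 from number 1 to 11, with a limma adjusted p of 0.35. Control mice 1, 9 and 11 stood in descending order, from 5.49 to 4.90, and zinc diet mouse 3 was the highest of its diet. Without control mouse 11 the slope was -0.033 (limma adjusted p = 0.73) and without control mouse 1 it was -0.039 (limma adjusted p = 0.62), and neither kept an unadjusted p under 0.05. The second tested probe set of Cox7c gave -0.012 ± 0.012 (SE). A second probe set of Ndufab1, the mitochondrial acyl carrier protein, with a mean of 6.21 had a slope of 0.029 ± 0.011 (SE), another with a mean of 6.75 had a slope of -0.039 ± 0.018, and the one that represents the gene gave 0.0054 ± 0.011.

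**Figure D4:**
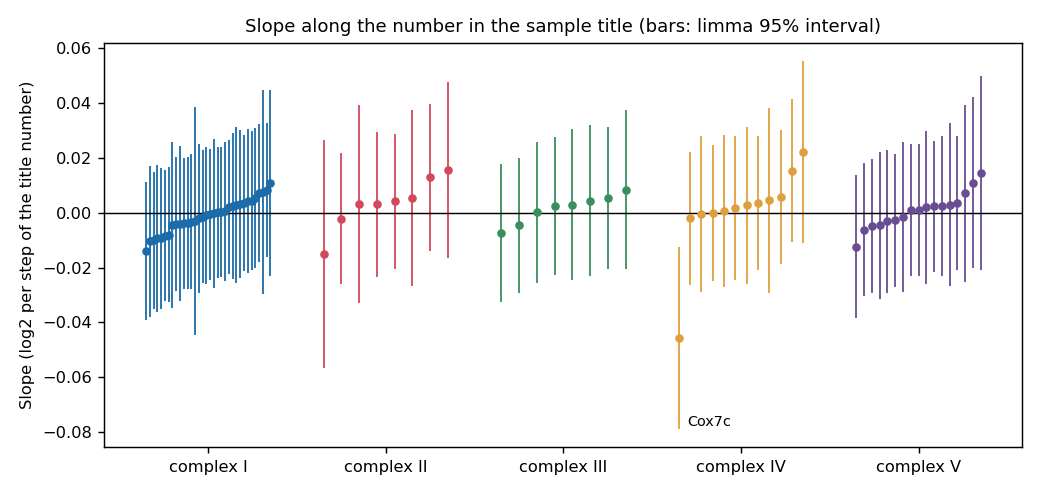
Slope in log2 units per step of the title number (y axis) for each tested gene, grouped by complex (x axis), with the 95% interval from limma as bars. Cox7c, at -0.046, is the 1 gene whose interval leaves out 0.

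Slopes of the other genes named by the same rule were smaller. In complex I the smallest p-values belonged to Ndufa2 (-0.014 ± 0.010 SE), Ndufb8 (-0.010 ± 0.010) and Ndufa5 (-0.010 ± 0.011). In complex II they belonged to the assembly factor genes Sdhaf2 (0.016 ± 0.013), Sdhaf4 (0.013 ± 0.011) and Sdhaf3 (-0.015 ± 0.017). Complex III gave Uqcrc1 (0.0083 ± 0.012), Uqcrh (-0.0076 ± 0.010) and Uqcrb (0.0053 ± 0.011). Cox6a2 (0.022 ± 0.014) and Cox8c (0.015 ± 0.011), both near the filter, followed Cox7c in complex IV. In complex V the genes were Atp5e (-0.012 ± 0.011), Atp5mpl (0.014 ± 0.015) and Atp5g2 (0.011 ± 0.013). Median slopes were -0.00084, 0.0036, 0.0026, 0.0021 and 0.0010 for complexes I to V, beside 0.0013 over all probe sets. Over all genes with 1 probe set each, as the members are taken, the median slope was 0.0033.

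The order along the title number was not alike in the diets. In complexes II to V the mean level ascended from control mouse 1 to 9 to 11 and descended from zinc diet mouse 3 to 7 to 10, and complex I showed neither order. Sdhaf3, an assembly factor of complex II, had the smallest p of the 79 for a difference in slope. It was at 8.60, 8.64 and 8.66 in the control mice and at 8.90, 8.79 and 8.44 in the zinc diet mice. Its slope was lower in zinc diet mice by 0.069 ± 0.024 (SE; limma adjusted p = 0.58). A term for title number by diet had an unadjusted p under 0.05 for this 1 gene of 79 (1.27%), where 8.62% of all probe sets did, and an adjusted p under 0.05 for 0. The term was below 0 for 54 of the 79 genes (68.4%), including 8 of 8 in complex III, beside 51.9% of all probe sets.

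Genes that work beside the respiratory chain were taken from lists by role. Of 43 assembly factor genes 39 were tested, 0 passed an adjusted p of 0.05 in limma for diet or title number, and the median difference between diets was 0.022, with 22 above 0. Cox16, an assembly factor of complex IV, had the smallest p among them (0.17 ± 0.069 SE, limma adjusted p = 0.78). Cycs, the electron carrier cytochrome c, gave 0.17 ± 0.099 (SE), and Cyc1, the cytochrome subunit of complex III that the prefixes leave out, gave -0.070 ± 0.081. Among 11 regulators of mitochondrial gene expression 9 lay above 0, with a median of 0.096 and 0 past the adjusted threshold. Esrra, an orphan nuclear receptor acting with PGC-1 coactivators, was the highest at 0.25 ± 0.078 (SE, limma adjusted p = 0.70). Ppargc1a (0.15 ± 0.13) and Gabpa (0.16 ± 0.078) lay above 0 as well, and Tfam at 0.045 ± 0.078. The 13 tested genes of the citric acid cycle had a median of 0.014, with 8 above 0 and 0 past the adjusted threshold. Genes encoded in mitochondrial DNA were not analysed here.

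The arrays were alike in overall level, with medians from 4.04 to 4.09, and neuron markers averaged 12.04 to 12.13 in all 6 mice. Of 10 amygdala markers 9 were tested, and their mean was 9.06 to 9.28 in control mice and 9.46 to 9.56 in zinc diet mice. The markers did not all move alike: 7 of the 9 had a difference above 0, while Lmo3 (-0.43 ± 0.11 SE) and Sst (-0.15 ± 0.091) lay below. The difference between 3′ and 5′ control probe sets, a sign of RNA integrity, ranged from -0.18 to -0.044 for Gapdh and from 0.75 to 0.94 for Actb. Markers of striatal neurons averaged 9.45 to 9.81 in zinc diet mice and 8.21 to 8.54 in control mice, with no overlap of the diets for 8 of 8 tested genes, beside 12% of all probe sets. Choroid plexus markers averaged 8.83 in control mouse 9 and 5.52 to 6.31 in the others. Myelin markers averaged 9.90 to 10.60 in zinc diet mice and 9.45 to 10.05 in control mice, and 9 of 9 tested had a difference above 0 (median 0.38). Astrocyte (10.12 to 10.27), microglia (7.39 to 7.49) and endothelial and pericyte markers (8.12 to 8.39) overlapped between the diets. Their part in the small differences of the respiratory chain genes was not tested.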

How the data were processed

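Labelled RNA from the amygdala of 6 mice was hybridised to 1-colour Affymetrix Mouse430_2 arrays, per the labels' protocols. The authors deposited 1 series table of log2 levels for 45101 probe sets. Per the submitters' processing notes, tools used include GCRMA 2.28.0 and R 2.15.1, whose roles are not listed there. That the scale is log2 follows from the range of the numbers. Centring, filters and detection calls are not given in the sources used here.

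After leaving out 64 control probe sets and those with a mean under 4, 22877 probe sets were fitted (R 4.3.3, limma 3.58.1) by lmFit followed by eBayes. Tests were two-sided, with Benjamini-Hochberg adjustment over all. Diet was the only term for the diet difference. The title number and diet were the terms for the slope. Intervals are at 95% from the moderated SE. The moderated SE draws on a prior SD of 0.124. The SD within a diet lay below it for most of the 79 genes and above it for 7, Cox7c and Atp5mpl among them. Tested on simulated data of the same 22877 probe sets, the diet fit recovered 93% of 100 changed by 1 log2 unit, with 9 false calls. For the title number 63% of 100 changed by 1 log2 unit from number 1 to 11 were recovered. The simulation drew independent normal errors at limma's moderated SD of each probe set. It held no shifts shared by the probe sets of a mouse, so recovery in the real arrays may be lower. Effects under 1 log2 unit were not simulated, so recovery at the sizes estimated for the 79 genes, at most 0.29, is unknown. Precision is limited by 3 arrays per diet. Alternatives covered the filter, normalization, eBayes settings, array weights, the choice of probe set, the title number terms and leaving out each mouse.

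The members, gene lists and tests were chosen with earlier results of these data known. Named genes were, per complex, the 3 with the smallest p for diet and for title number, the highest and lowest in level, and core and isoform genes fixed by name. Others were chosen after their values were seen. Of the 79 tested genes, 46 are represented by probe sets ending in _s_at, _x_at or _a_at, which can match related transcripts and pseudogenes. Each mouse is 1 sample.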

Additional observations from a re-analysis of the deposited data

Results flagged for a closer look

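In complexes II, III, IV and V the mean level ran in opposite directions along the title number in the 2 diets: control mice 1, 9 and 11 were in ascending order, and zinc diet mice 3, 7 and 10 in descending order. For complex II the slope was 0.0084 log2 units per step in control mice and -0.0083 in zinc diet mice, 0.0168 apart. For complex III it was 0.0066 and -0.010, 0.0170 apart, for complex IV 0.0033 and -0.0055, 0.0088 apart, and for complex V 0.0043 and -0.0074, 0.012 apart. Complex I showed no such order, with slopes of -0.00040 and -0.0029. The difference of these means was not tested, and the complexes share the same 6 arrays. Gene by gene, a term for the number by diet, added after seeing the data, passed an adjusted p of 0.05 in limma for 0 of the 79 tested genes and 0 of all probe sets. At an unadjusted p under 0.05 it took in 1 of 79, Sdhaf3 (-0.069 ± 0.024 SE), where 8.62% of all probe sets did.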

How the results depend on the processing

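No respiratory chain gene passed an adjusted p of 0.05 in limma, for diet or title number, under any of the alternatives run. No paired analysis was possible because the diets share no title number. Over all probe sets, calls for diet (0) became 2 with a mean of at least 6, 3 with trend and robust eBayes, 1 with 1 probe set per gene, 2 with probe sets averaged within genes and 1 with the title number as covariate, and stayed at 0 to 0 on leaving out a mouse. Calls for title number (1) became 3 with no filter and 8 with trend and robust eBayes. They became 0 with a mean of at least 6, 1 probe set per gene, probe sets averaged within genes, values under 4 set to 4, no diet term, or ranks of the number. Leaving out a mouse gave 0 to 165, with 165 without control mouse 9.

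At an unadjusted p under 0.05, the tested genes for diet (0) became 2 with trend and robust eBayes (Cox5a and Atp5pb), 1 with array weights (Atp5mpl) and 1 with the title number as covariate (Cox7c). Leaving out a mouse gave 0 to 2: Cox7c (0.44) and Atp5mpl (-0.30) without control mouse 1, and Sdhaf3 without zinc diet mouse 10. For title number (1) the count was 0 with a mean of at least 6 and 0 without probe sets ending in _s_at, _x_at or _a_at, and 0 to 1 on leaving out a mouse (0 without control mouse 11, and Sdhaf3 in place of Cox7c without control mouse 1). The shares of all probe sets at that threshold were not counted under these alternatives, so these counts have no background beside them.

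The median diet difference of complex I (0.024) was 0.0072 with quantile normalization and 0.036 with median centring. Those of complexes IV and V were -0.0030 and -0.0069, with 74 genes tested in all, without the _s_at, _x_at and _a_at probe sets. The median slope of complex I was 0.0024 with median centring and 0.0020 without those probe sets. On leaving out a mouse it ran from -0.0034 to -0.00086, that of complex III from -0.0072 to 0.0065, and that of all tested genes from -0.0043 to 0.0028. Each of these lowest values was without control mouse 1. Genes with zinc diet mice above control mice (9) numbered 12 to 21 on leaving out a mouse (21 without zinc diet mouse 10), with 3 mice against 2. Genes below (0) numbered 1 with no filter, 1 with probe sets averaged within genes, 1 without the _s_at, _x_at and _a_at probe sets, and 0 to 7 on leaving out a mouse (7 without control mouse 1). The share of all probe sets then ran from 9.49% to 15% above and from 8.2% to 13.9% below. The percentage of tested genes above 0 for diet (67.1%) was 57.0% with quantile normalization and 58.4% with probe sets averaged within genes. Without the _s_at, _x_at and _a_at probe sets it was 56.8%, and with median centring or array weights 73.4%. For title number (57.0%) the percentage was 73.4% with median centring and 38.0% with array weights. In the main fit 53.7% of all probe sets and 59.9% of all genes with 1 probe set each had a slope above 0. The shares of all genes above 0 under the alternatives were not counted, for diet or title number.

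Signs of small diet differences turned for Ndufv1 (-0.017 with quantile normalization, -0.0028 with the title number), Sdha (-0.010 with quantile normalization, -0.014 with array weights, -0.036 with its probe sets averaged, -0.012 without _s_at, _x_at or _a_at), Sdhb (0.0053 with median centring, 0.00083 with array weights) and Atp5pb (-0.0051 without _s_at, _x_at or _a_at). Slopes turned with array weights for Atp5mpl (-0.0081), Ndufa5 (0.0013) and Uqcrc1 (-0.00090), with its probe sets averaged for Uqcrb (-0.00065), and without _s_at, _x_at or _a_at for Ndufa5 (0.0066), Uqcrb (-0.0066) and Uqcrh (0.0054). On leaving out a mouse, differences ran from -0.0046 to 0.16 for Ndufs1, -0.014 to 0.029 for Sdha, -0.023 to 0.030 for Ndufv1, -0.00057 to 0.13 for Sdhc, -0.015 to 0.0067 for Sdhb and -0.090 to 0.016 for Uqcrc1. Slopes ran from -0.023 to 0.026 for Atp5mpl, -0.016 to 0.0094 for Ndufa5, -0.0057 to 0.024 for Sdhaf2, -0.0037 to 0.018 for Sdhaf4, -0.0058 to 0.015 for Uqcrc1, -0.057 to 0.0019 for Sdhaf3, -0.0017 to 0.018 for Atp5g2 and -0.0011 to 0.0086 for Uqcrb. The cause of these changes was not tested. Limits are 3 arrays per diet, dim probe sets for Cox7c, Cox8c, Cox6a2 and Ndufb1, and a title number of unstated meaning.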
